A study of Mus musculus with 8 samples.

Results

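A set of 6 genes used to recognise Merkel cells, Atoh1, Sox2, Isl1, Krt20, Insm1 and Rab3c, were followed in whole dorsal skin of wild-type mouse embryos. Every probeset annotated to exactly 1 of these symbols was taken, which gave 12 probesets of the 34945 that carried a single gene symbol, for 6 of 18193 genes. The ages were embryonic day 14.5 (E14.5, 2 arrays), E16.5 (3 arrays) and E18.5 (3 arrays), and each array received material from total RNA of dorsal skin. The stages span the differentiation of the epidermis, whose regulation the study asked about. The labels do not say whether the samples came from separate embryos or litters, so the p-values measure only the spread between these samples. A change in a tissue sample can come from the number of Merkel cells or from the amount of RNA per cell, and these cannot be told apart here.

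Merkel cells are sparse touch receptor cells of the epidermis that form from keratinocyte progenitors before birth, cluster around guard hairs and contact sensory nerve endings. They combine an epithelial keratin set with the granules and release machinery of neuroendocrine cells. Atoh1, a basic helix-loop-helix transcription factor, is required for them to form in the mouse, Sox2 and Isl1 encode transcription factors that act with it, and Polycomb proteins keep these genes silent in other keratinocytes. Krt20 encodes a simple-type keratin that marks maturing Merkel cells, Insm1 a zinc finger factor of neuroendocrine cells, and Rab3c a small GTPase of secretory vesicles.

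The sequences just upstream of 3 of these genes are shown, the 2 genes with a probeset that passed the test and Krt20, on which the E14.5 arrays disagreed. They are the 250 bases before the gene start in RefSeq, build GRCm38.p6, printed 5′ to 3′ on the strand of the gene. Atoh1 lies on the plus strand (chr6:64728875-64729124), Isl1 on the minus strand (chr13:116309689-116309938) and Krt20 on the minus strand (chr11:99438154-99438403). Capitals mark matches on either strand to CANNTG, the E-box read by basic helix-loop-helix factors, to TATAAA and to CCAAT.
Atoh1: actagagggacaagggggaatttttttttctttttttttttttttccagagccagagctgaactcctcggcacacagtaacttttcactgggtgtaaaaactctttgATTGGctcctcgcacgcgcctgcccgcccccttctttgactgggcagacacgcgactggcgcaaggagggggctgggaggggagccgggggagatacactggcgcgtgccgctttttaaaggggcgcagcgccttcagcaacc
Isl1: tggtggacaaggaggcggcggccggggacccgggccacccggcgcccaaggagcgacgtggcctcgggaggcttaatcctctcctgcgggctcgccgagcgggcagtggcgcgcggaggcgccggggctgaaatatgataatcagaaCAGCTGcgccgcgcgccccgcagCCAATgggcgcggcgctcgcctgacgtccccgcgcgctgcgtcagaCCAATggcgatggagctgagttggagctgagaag
Krt20: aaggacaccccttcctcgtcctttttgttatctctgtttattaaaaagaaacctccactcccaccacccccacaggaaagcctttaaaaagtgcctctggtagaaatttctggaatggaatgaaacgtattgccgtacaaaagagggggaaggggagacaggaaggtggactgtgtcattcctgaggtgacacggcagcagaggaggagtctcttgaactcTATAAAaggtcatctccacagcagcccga

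The Isl1 window held 1 E-box, with the letters CAGCTG from 103 to 98 bases before the start, and 2 CCAAT matches. The Krt20 window held a TATAAA match from 29 to 24 bases before the start, and the Atoh1 window held a CCAAT match but no CANNTG or TATAAA. Of the 32851 upstream windows of the same length, 66.2% held CANNTG, 13% held CAGCTG, a subset of it, 12.4% held TATAAA and 33.8% held CCAAT. A match describes letters only and is not a site shown to be used.

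The samples gave the signals of epidermis, with Krt14, a basal layer keratin, at 4195 and 4963 on the E14.5 arrays, between 13938 and 15505 in E16.5 skin and between 16173 and 19929 in E18.5 skin. Each array's background was the signal that 95% of 80 probesets for smell and pheromone receptor genes did not exceed, and it lay between 33.6 and 92.2. The E14.5 arrays stood apart from the rest. The ratio of the beta-actin signals at the 3′ and 5′ ends was 1.11 to 1.37 on the 6 later arrays, against 6.49 and 6.91 at E14.5, and the correlation across probesets was 0.938 to 0.958 between E16.5 and E18.5 arrays but 0.758 to 0.788 between E14.5 and E18.5 arrays. The labels give 1 labelling protocol for all 8 arrays, and whether the E14.5 targets were made in the same way is uncertain. Stage and array preparation cannot be told apart in any comparison with E14.5.

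The 2 E14.5 arrays also differed from each other. Of 18193 genes, each by its brightest probeset, 60 were at least 4 log2 units higher on replicate 1 than on replicate 2, and 0 were that much higher on replicate 2. Genes known from liver and gut were among the largest differences, a choice made after their values were seen, as was Xist, an RNA of the inactive X chromosome in female cells. Xist gave 10700.4 and 26.1 on the E14.5 arrays, 11112, 82.4 and 11736 in E16.5 skin, and 193, 13611 and 202 in E18.5 skin, so arrays differed in it within every stage. The labels give no sex, and the part of this difference in the results was not tested. Afp, which encodes alpha-fetoprotein, gave 29656 on replicate 1 and 132 on replicate 2, Alb, which encodes albumin, gave 7351 and 23.7, and Hnf4a, a transcription factor of liver and intestine, gave 6422 and 32.1. For Atoh1, Isl1 1450723_at and Krt20, changes with either E14.5 array alone are given as well, in fits that assume the lone array to vary like those of the other stages. Every other change or count against E14.5 uses both arrays.

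**Figure D1:**
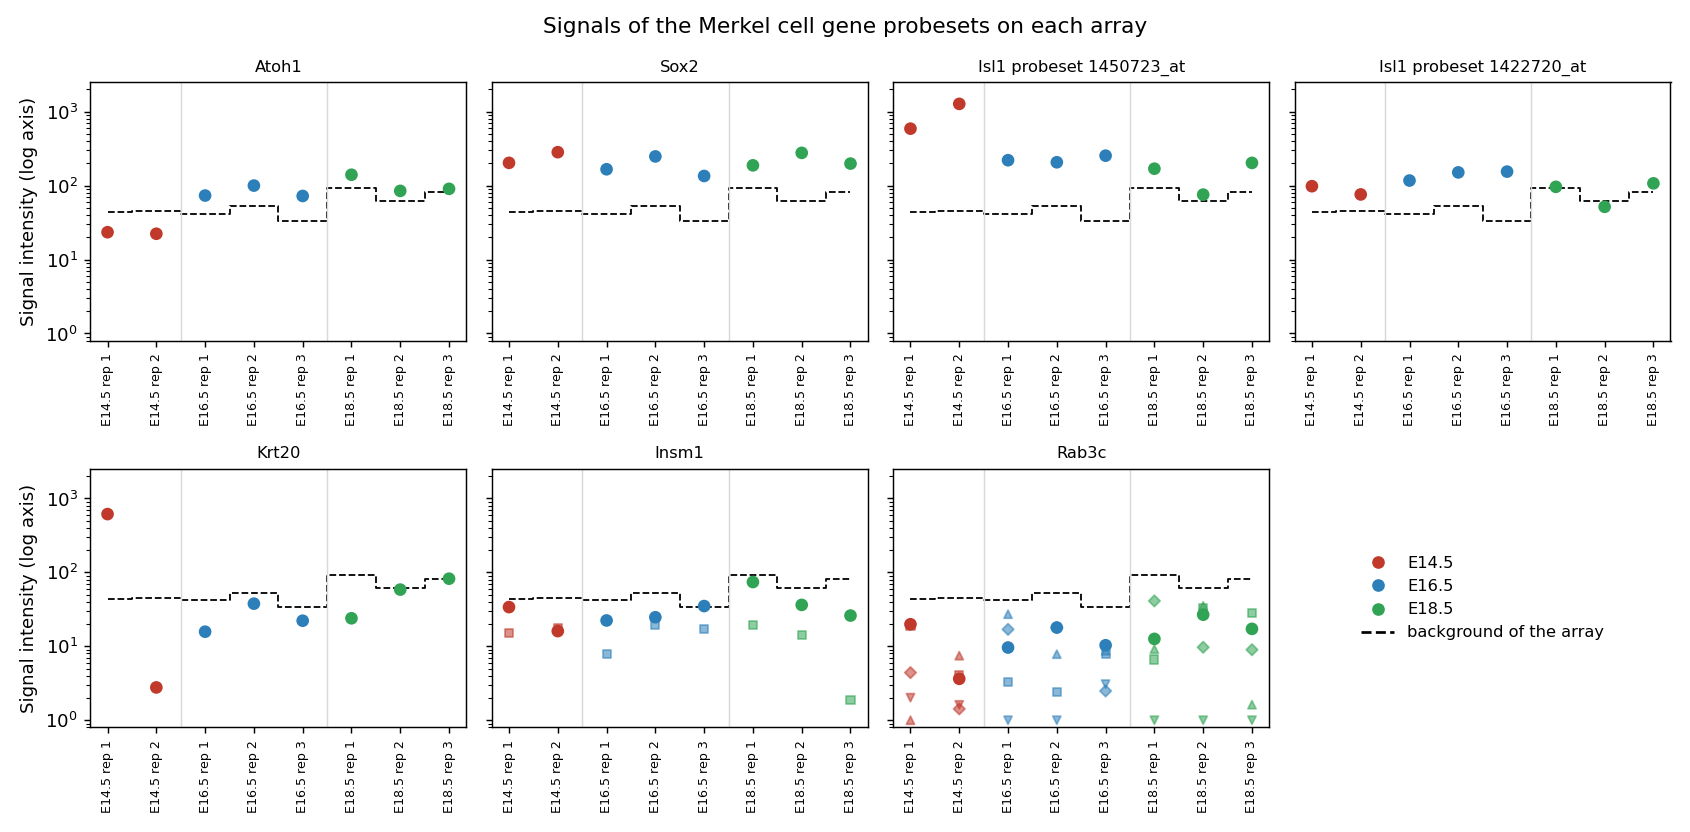
Signal intensity (log axis) of every member probeset on each of the 8 arrays, coloured by stage, with the dashed line at each array's own background; Insm1 and Rab3c show all their probesets with different symbols, and signals under 1 are drawn at 1. Atoh1 lies under background on both E14.5 arrays and above it on the other 6, Sox2 and Isl1 probeset 1450723_at lie above it on all 8, Krt20 is high on 1 E14.5 array only, and no Rab3c probeset rises above it.

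Atoh1 was the member whose signal appeared during the course. Its only probeset gave 23.4 and 22.4 at E14.5, 73.5, 100.2 and 72.5 at E16.5, and 140.5, 84.9 and 90.6 at E18.5. Both E14.5 values were below background, at 0.534 and 0.489 of it, and all 6 later values were above it, at 1.75 to 2.16 times background in E16.5 skin and 1.12 to 1.52 times in E18.5 skin. The later arrays did not overlap those of E14.5, whereas E16.5 and E18.5 overlapped.

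On the log2(signal + 16) scale, Atoh1 rose by 1.32 ± 0.32 (SE) at E16.5 against E14.5 (adjusted p = 0.00449), and was at least 1.81-fold higher, taking the E14.5 level at no more than background. At E18.5 against E14.5 it rose by 1.61 ± 0.32 (adjusted p = 0.00125), at least 2.29-fold. Both folds are bounds for the signals as deposited and are not minima under the other scalings given below. At E18.5 against E16.5 the difference was 0.29 ± 0.29 (adjusted p = 0.551), and it did not pass the test. With either E14.5 array alone, and the spread taken from the other stages, the rise was called, at 1.34 without replicate 1 and 1.30 without replicate 2 for E16.5 (adjusted p = 0.018 and 0.0204). Genes of inner ear and spinal cord, other sites of Atoh1, summed to 285 to 460.4 on E14.5 arrays, 265 to 534 on E16.5 arrays and 481 to 662 on E18.5 arrays, and their part was not tested. The brightest gene of this list on each array was Myo7a, a hair cell myosin gene above background on all 8 arrays at 122 to 422, while Neurog2 and Lhx9 were above background on 2 arrays each and Otof, Olig2, Neurog1, Barhl1 and Barhl2 on 0. The rise depends on how the arrays are scaled, since the median change of all probesets against E14.5 was 0.38 for E16.5 skin and 0.59 for E18.5 skin. Relative to those medians Atoh1 changed by 0.94 and 1.03, and 73.3% and 76.9% of all probesets had a lower change. After quantile normalization, which took the median change of all probesets to -0.03 at E16.5, the change at E16.5 was 0.80 (adjusted p = 0.0546), and with each array centred on its median, which took it to -0.57, the changes at E16.5 and E18.5 were 0.37 and 0.55 (adjusted p = 0.345 and 0.176).

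Isl1, a LIM homeodomain factor that sensory and sympathetic neurons also express, was measured by 2 probesets that did not move alike. Probeset 1450723_at gave 590.4 and 1278 at E14.5, 221, 207 and 255 at E16.5, and 169.6, 75.6 and 203 at E18.5. Its 3 stages did not overlap, with E14.5 highest and E18.5 lowest. It fell by 1.87 ± 0.40 on the log2 scale at E16.5 against E14.5 (SE, adjusted p = 0.00197), a 3.83-fold difference. At E18.5 against E14.5 it fell by 2.51 ± 0.40 (adjusted p = 0.000253), a 6.31-fold difference. The fall was called with either E14.5 array alone, again with the spread of the other stages, at -2.41 without replicate 1 and -1.32 without replicate 2 for E16.5 (adjusted p = 0.00167 and 0.0352).

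Probeset 1422720_at, which is annotated to the same source sequence, gave 98.3 and 76.0 at E14.5, 117, 151 and 155 at E16.5, and 96.4, 51.7 and 107 at E18.5. It was thus highest at E16.5, where its 3 arrays lay above those of both other stages. Its log2 change was 0.61 ± 0.33 at E16.5 against E14.5 (adjusted p = 0.144) and -0.07 ± 0.33 at E18.5 against E14.5 (adjusted p = 0.877). The E18.5 comparison depended on scaling, since the probeset was called lower than at E14.5 after quantile normalization (-1.15, adjusted p = 0.011) and with median centring (-1.13, adjusted p = 0.0115), the direction of 1450723_at. The mean of both probesets had a log2 change of -0.63 at E16.5 against E14.5 (adjusted p = 0.113), so the call there rests on 1450723_at. Between E16.5 and E18.5 the probesets moved alike, by -0.65 ± 0.36 and -0.67 ± 0.30 (adjusted p = 0.27 and 0.172), and neither passed the test. The E18.5 values lay below those of E16.5 without overlap in both. How many of all probesets separate these stages in this way was not counted, so the lack of overlap adds no support.

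Genes of sensory and sympathetic neurons, another source of Isl1 in skin, gave a summed signal over 12 measured genes of 545 to 834 on E14.5 arrays, 1145 to 1465 on E16.5 arrays and 1967 to 2269 on E18.5 arrays. The sum was lowest where 1450723_at was highest, but on the later arrays it was led by Runx1 (409 to 627) and Ntrk2 (304 to 704). The list also went both ways. At E16.5 against E14.5, 6 of the 12 genes were called higher and 3 lower. The 3 were Pou4f1 (-1.62), above background on the E14.5 arrays only, Ret (-1.37) and Scn10a (-0.96). The neurotrophin receptor gene Ntrk2 and the transcription factor gene Runx1 were above background on all 8 arrays, Ntrk3 on 7, Dbh on 6, Tubb3, Avil and Ret on 5 each, Th and Elavl3 on 3 each, Pou4f1 on 2, Prph on 1 and Scn10a on 0. The 3′ to 5′ ratio of beta-actin given above differed in the same comparison in which the Isl1 probesets disagree. The part of either in the Isl1 values was not tested.

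Sox2 held a similar signal throughout. Its probeset gave 203 and 284 at E14.5, 167, 249 and 135 at E16.5, and 188, 278 and 199 at E18.5, and the 3 stages overlapped. The log2 change was -0.40 ± 0.30 at E16.5 against E14.5 (adjusted p = 0.281), 0.27 ± 0.27 at E18.5 against E16.5 (adjusted p = 0.549) and -0.13 ± 0.30 at E18.5 against E14.5 (adjusted p = 0.733), and none passed the test. Scaling changed this, since Sox2 was called lower than at E14.5 after quantile normalization (-1.20 for E16.5 and -1.05 for E18.5 skin, adjusted p = 0.00621 and 0.013) and with median centring (-1.35 and -1.20, adjusted p = 0.00223 and 0.00506).

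Sox2 is also made by dermal papilla and Schwann cells. The 10 dermal papilla and condensate genes measured summed to 8570 to 10531 on E14.5 arrays, 11532 to 12741 on E16.5 arrays and 11597 to 16369 on E18.5 arrays, and the 8 Schwann cell genes to 4269.6 to 4599, 4235 to 4739.7 and 3849.8 to 5178. Sox18, which papilla and endothelial cells make, and Erbb3, a receptor of Schwann cells, were above background on all 8 arrays. The papilla genes did not move alike. Sox18 gave 58.0 and 84.4 on the E14.5 arrays and 2341 to 2876 in E16.5 skin, and Prdm1 226 and 255, then 1599 to 2227. At E16.5 against E14.5, 6 papilla genes were called higher, 1 lower (Vcan) and 3 were not called. Erbb3 alone gave 2724 to 3384 of the Schwann cell sum, and the other genes of that list did not move alike. At E18.5 against E14.5, 3 Schwann cell genes were called higher (Foxd3, Egr2 and Gfra3) and 2 lower (Sox10 and Fabp7). The share of the Sox2 signal that comes from either was not tested.

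Krt20 was high on 1 of the 8 arrays. It gave 615 and 2.78 at E14.5, 15.8, 37.8 and 22.2 at E16.5, and 24, 58.5 and 82.2 at E18.5. Only E14.5 replicate 1, at 14.0 times background, and E18.5 replicate 3, at 1.02 times, were above background. The E14.5 arrays differed by 5.07 log2 units, which placed Krt20 at rank 34 of 18193 genes for excess on replicate 1. That difference was known beforehand and was why each E14.5 array was read separately, so the rank only describes it.

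Some genes of intestine, another site of Krt20, were high on the same array. Of 11 listed genes of intestine and urothelium, 5 were above background on E14.5 replicate 1 and 2 on replicate 2. Cdx2, an intestinal homeobox gene, gave 369 on replicate 1 and 8.52 on replicate 2, Vil1, which encodes the brush border protein villin, gave 589.5 and 3.31, and Fabp2, an intestinal fatty acid binding protein gene, gave 189 and 3.82. On the 6 later arrays these 3 genes lay between 1.36 and 45.2, below background throughout. The summed signal of the whole list was 3627 on replicate 1 and 3148 on replicate 2, with Upk1b, a urothelial plaque gene, giving 2205 and 2912 of it. Lgals4, an intestinal galectin gene, was alike on both at 211 and 159, and Cdx1, Cdh17, Muc2, Upk1a, Upk2 and Upk3a were not above background on either E14.5 array. Muc2, Upk1a and Upk2 were above background on all 3 E16.5 arrays. Among the other members, Atoh1, Insm1 and Rab3c were below background on both E14.5 arrays, and Sox2 and both Isl1 probesets were above it on both. The part of gut or liver RNA in the Krt20 signal was not tested.

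The Krt20 comparisons with E14.5 turned on which array was used. With both, the log2 change was -1.44 ± 1.1 for E16.5 and -0.71 ± 1.1 for E18.5 skin (SE, adjusted p = 0.294 and 0.601). Without replicate 1 it was 1.1 ± 0.54 and 1.82 ± 0.54 (adjusted p = 0.123 and 0.0195), and without replicate 2 it was -3.97 ± 0.54 and -3.25 ± 0.54 (adjusted p = 0.000269 and 0.000907), each time assuming that the lone array varies like the others. No fold is given for the rise without replicate 1, since 2 of 3 E18.5 arrays and the remaining E14.5 array were at background. At E18.5 against E16.5 the change was 0.72 ± 0.98 (adjusted p = 0.673). The SE was 0.39 with the arrays of these 2 stages alone, and the change was still not called (adjusted p = 0.248).

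**Figure D2:**
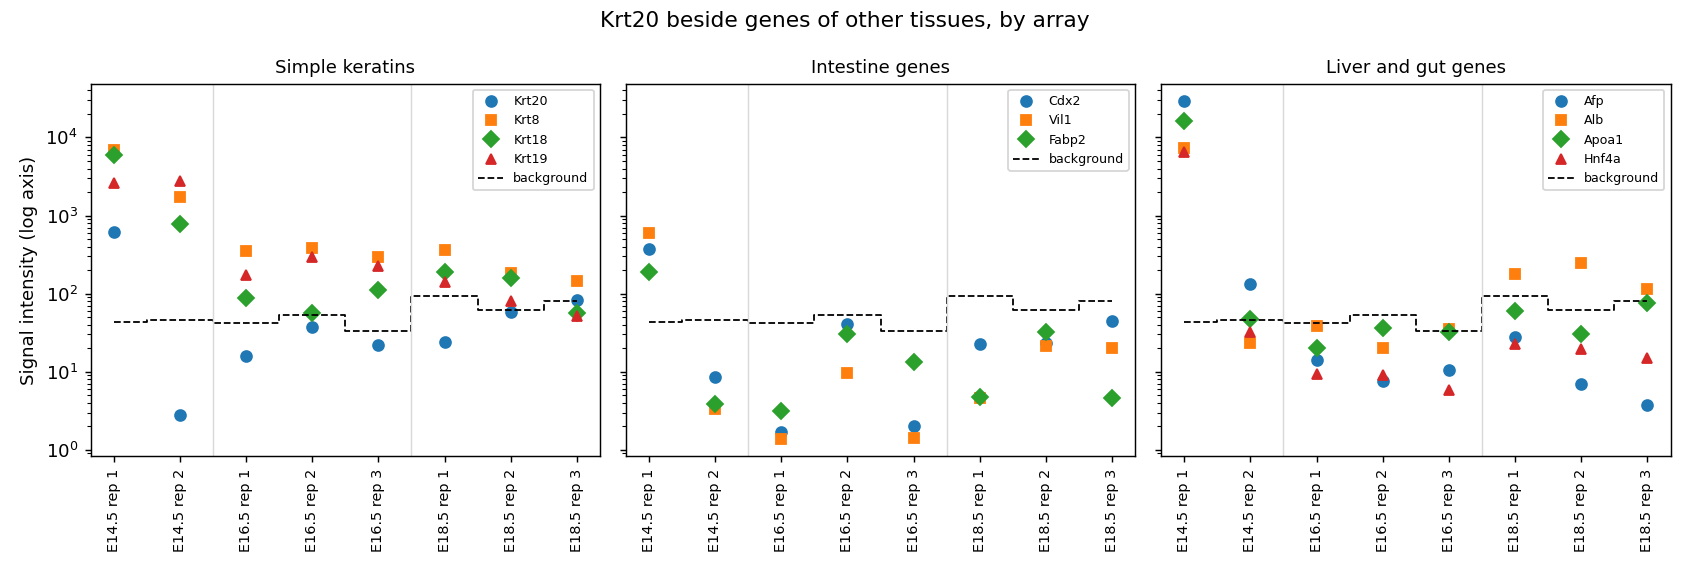
Signal intensity (log axis) by array of Krt20 and other simple keratins, 3 intestine genes and 4 liver and gut genes. Each array's background is dashed. The 3 intestine genes belong to the fixed list, and both these and the 4 other genes were chosen after their values were seen. Listed intestine genes without a clear excess on replicate 1, such as Lgals4 (211 and 159 on the E14.5 arrays), are not drawn. E14.5 replicate 1 carries Krt20 at 615, Cdx2 at 369 and Afp at 29656, while replicate 2 has Krt20 at 2.78 and Cdx2 at 8.52.

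Insm1 and Rab3c were at or near background. Insm1 probeset 1421399_at gave 33.9 and 16.1 at E14.5, 22.4, 24.7 and 35.0 at E16.5, and 74.1, 36.3 and 26.1 at E18.5. It exceeded background on 1 array, E16.5 replicate 3, at 1.04 times, while its brightest value, 74.1 on E18.5 replicate 1, was 0.804 of a higher background. The other Insm1 probeset ranged from 1.86 to 19.6, and the 5 Rab3c probesets from 0.0533 to 41.1, all below background on every array. A probeset at background sets only an upper limit, so these values do not show that the genes were silent in the few cells that may use them.

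In all, 6 of the 12 probesets exceeded background on at least 1 array and 2 did so on all 8. By their mean log2 signal, the brightest Isl1 probeset and that of Sox2 were brighter than 59.1% and 54.5% of all probesets, that of Atoh1 than 35.3% and that of Krt20 than 29.0%.

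At E18.5 against E16.5, limma called 0 of the 12 member probesets, where it called 10.7% of all 34945 probesets. At an unadjusted p under 0.05 there were 2, Isl1 1422720_at and a Rab3c probeset below background, against 27.5% of all probesets. The median log2 change was 0.27 over the 12 probesets and 0.12 over all probesets. At E16.5 against E14.5, 2 of 12 were called, Atoh1 up and Isl1 1450723_at down, against 57.6% of all probesets, with medians of 0.02 and 0.38. At E18.5 against E14.5 the same 2 were called in the same directions, against 59.8% of all, with medians of 0.15 and 0.59. Since both comparisons use the same E14.5 arrays, the second is no independent repeat of the first. Of all calls against E14.5, 67.5% for E16.5 and 71.7% for E18.5 skin were rises, and the shares were 33.1% and 32.9% with median centring and 51.4% in each with quantile normalization. At E18.5 against E16.5 the share was 58.6%, and 38.5% with median centring.

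**Figure D3:**
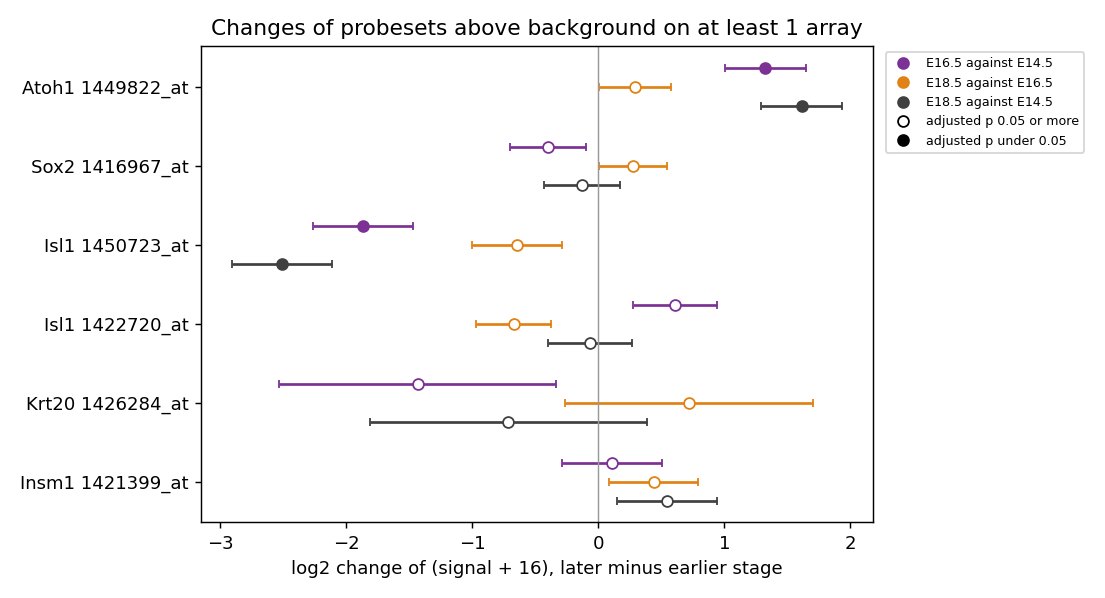
Change in log2(signal + 16), later minus earlier stage, with its SE from the fit to all 8 arrays, for the 6 probesets above background on at least 1 array; filled points have an adjusted p under 0.05. Atoh1 changes by 1.32 and 1.61 against E14.5, the 2 Isl1 probesets by -1.87 and 0.61 at E16.5 against E14.5, and no point is filled at E18.5 against E16.5.

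Other genes of Merkel cell biology were read from fixed lists, each gene by its brightest probeset. Among all 18193 genes read this way, 11.9% were called at E18.5 against E16.5, 57.9% at E16.5 against E14.5 and 61% at E18.5 against E14.5. Of the other Merkel transcription factors 0 of 5 were called at E18.5 against E16.5. Gfi1, a target of Atoh1 in inner ear hair cells and expressed in Merkel cells, gave 74.1 and 85.3 at E14.5, 144, 258 and 215 at E16.5, and 250.4, 80.5 and 300.1 at E18.5. Its E16.5 values lay above both E14.5 values, while those of E18.5 overlapped with both stages. Pou4f3, a POU factor, exceeded background on 0 arrays.

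Chga, which encodes the granule protein chromogranin A, gave a higher signal at each later stage. Its change from E14.5 was not tried under other scalings, and stage and array preparation cannot be told apart there. It gave 2.98 and 11.8 at E14.5, 51.1, 44.8 and 37.9 at E16.5, and 236, 299 and 177 at E18.5, with no overlap between stages. At E18.5 against E16.5 it was at least 4.95-fold higher (log2 2.04 ± 0.30 SE, adjusted p = 0.00303), and at E16.5 against E14.5, with 2 of 3 E16.5 arrays above background, its log2 change was 1.39 ± 0.34 (adjusted p = 0.00431). Chromaffin and sympathetic cells also make it, and Th, the catecholamine enzyme gene of those cells, gave 6.31 and 3.84, then 29.3, 36.9 and 38.5, then 133, 81.4 and 80.0 over the same stages. Th moved with Chga, but it was above background on 3 arrays only. Its call at E18.5 against E16.5 was kept in 11 of 18 alternatives. Of the 12 measured neuron genes, 3 were called higher at that step, 0 lower and 9 were not called. Dbh, another catecholamine enzyme gene, was among those not called (0.48, adjusted p = 0.507). The part of such cells in the Chga values was not tested.

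Of 11 measured neuropeptide and granule genes, 3 rose and 1 fell at E18.5 against E16.5. Beside Chga, Cpe, a prohormone-processing carboxypeptidase that many cell types make, was 4.82-fold higher (log2 2.25 ± 0.16, adjusted p = 9.02e-05). Scg2, a secretogranin, had a log2 change of 1.32 ± 0.33 (adjusted p = 0.03) with all 6 arrays at background, and its call was lost without any 1 of them. Penk, which encodes proenkephalin, fell by 0.40 ± 0.10 (adjusted p = 0.0271). That call did not hold when any E16.5 array or E18.5 replicate 2 was left out, or without a variance trend. The neuropeptide gene Cck was above background on 0 arrays.

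In the synaptic release list 1 of 17 rose and 1 fell. Syt7, a vesicle calcium sensor, changed by 1.30 ± 0.29 (adjusted p = 0.02), which did not hold without E16.5 replicate 1 or 2 or E18.5 replicate 2, after quantile normalization or with the mean of its probesets (adjusted p up to 0.793). Rab3d, a relative of Rab3c found in exocrine granules, fell by 0.71 ± 0.14 (adjusted p = 0.0117), and the call ended when E16.5 replicate 2 or 3 was left out. None of 7 neurofilament and neuroendocrine markers, 5 channel genes or 6 Polycomb genes was called at this step (0 in each).

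The simple keratins that Merkel cells share with periderm, Krt8, Krt18 and Krt19, were all called lower at E16.5 than at E14.5. Of the 6 genes of the periderm list, 5 were called higher at that step and 0 lower. Krt8 gave 6892 and 1745 on the E14.5 arrays, 293 to 384 in E16.5 skin and 147 to 363 in E18.5 skin, and Krt18 gave 5947 and 791, then 56.9 to 112, then 56.7 to 192. Both were higher on E14.5 replicate 1 than on replicate 2, as Krt20 was, whereas Krt19 gave 2637 and 2745. Krt19 also fell by 1.26 ± 0.30 at E18.5 against E16.5 (adjusted p = 0.0243). The call ended when E16.5 replicate 2 or 3 or E18.5 replicate 2 was left out, and without a variance trend.

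Piezo2, the mechanosensitive channel of Merkel cells, was measured by 2 probesets. Probeset 1442115_at gave 4072 and 3819 at E14.5, then 94.7 to 123 in E16.5 skin and 82.0 to 134 in E18.5 skin. Probeset 1430736_at gave 16.2 and 18.0, then 13 to 75.8, then 5.52 to 45.5, and exceeded background on 1 array, an E16.5 array, so that it gives only an upper limit at E14.5. The log2 changes at E16.5 against E14.5 were -5.03 (adjusted p = 5.43e-08) and 0.77 (adjusted p = 0.26).

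Among signals that bear on Merkel cell formation 3 of 12 rose and 1 fell at E18.5 against E16.5. Shh, the ligand whose release from hair follicles is needed for touch dome Merkel cells in the mouse, gave 514 and 697 at E14.5, 946, 1209 and 1248 at E16.5, and 4226, 2872 and 2895 at E18.5. It was 2.91-fold higher at E18.5 than at E16.5 (log2 1.53 ± 0.19, adjusted p = 0.00129), and its stages did not overlap. Ptch1, the Shh receptor, changed by 0.54 ± 0.13 (adjusted p = 0.0274) and Notch1, a receptor that holds back Merkel cell fate, by -0.53 ± 0.14 (adjusted p = 0.0399). Both calls ended when any E16.5 array or E18.5 replicate 3 was left out, that of Ptch1 also without E18.5 replicate 1 and that of Notch1 also without E18.5 replicate 2. The Ptch1 call was also lost with quantile normalization, median centring, no variance trend and the mean of its probesets (0.13, adjusted p = 0.56), and the Notch1 call with no variance trend and the mean of its probesets. Ctnnb1, the Wnt effector, rose by 0.54 ± 0.09 (adjusted p = 0.00463), but the call was lost with quantile normalization or the mean of its probesets (adjusted p up to 0.119), and without a variance trend, where the change was the same (adjusted p = 0.0577).

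**Figure D4:**
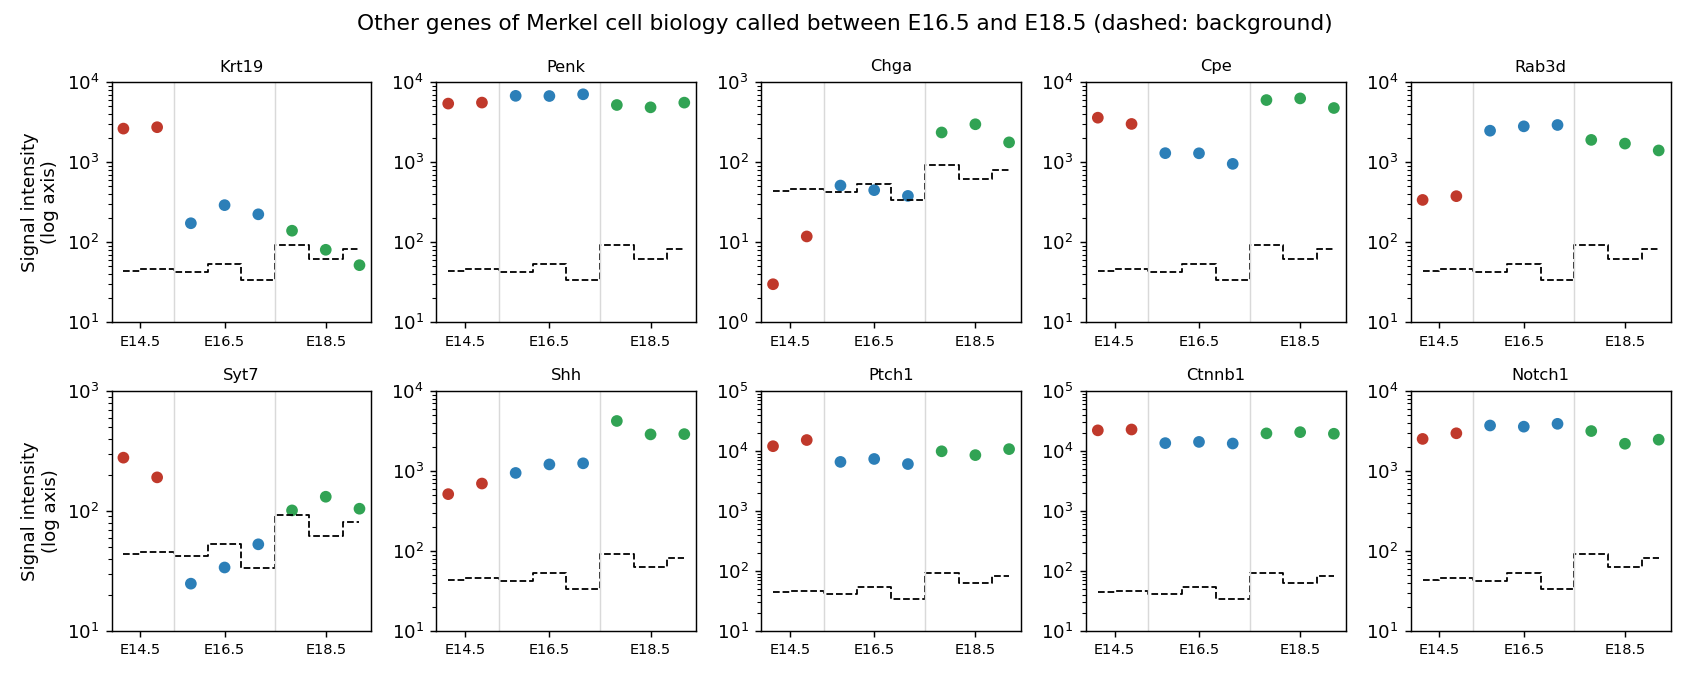
Signal intensity (log axes that differ between panels) by stage for genes of the Merkel keratin, granule, release and signal lists called at E18.5 against E16.5, other than Scg2, which lies at background there. Chga and Shh lie higher at each stage without overlap, and Cpe is lowest at E16.5.

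Among markers of other cells, at E18.5 against E16.5, 3 of 12 neuron genes rose (Ntrk2, Th and Ret), 0 of 8 Schwann cell genes were called, 2 of 10 papilla genes rose (Bmp4 and Corin), and 1 of 6 periderm genes rose (Krt17) and 4 fell (Krt13, Krt6a, Grhl3 and Sfn). Of 7 epidermal genes 2 rose (Trp63 and Cdh1), and 0 of 11 intestine and urothelium genes and 0 of 8 inner ear and spinal cord genes were called. At E16.5 against E14.5, the Merkel lists went both ways. There 1 of the other transcription factors rose and 1 fell, 0 simple keratins rose and 3 fell, 0 channels rose and 4 fell, 2 granule genes rose and 4 fell, 5 release genes rose and 4 fell, 0 neurofilament and neuroendocrine markers rose and 2 fell, 3 Polycomb genes rose and 2 fell, and 6 signal genes rose and 5 fell. These counts take each gene by its brightest probeset. Among the genes counted as falling, Hes6, Cacna1a and Cacna1d each had another probeset called higher. Of the falling channel and granule genes, Kcnc2, Scg2 and Scg5 exceeded background on 1 array each and Vip on 0.

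The genes whose profiles over the 8 arrays lay closest to Atoh1, after each gene's mean log2 signal was subtracted, were Rab3il1 and B9d1, with root mean square differences of 0.11 and 0.12 log2 units among 15301 genes. Atoh1 itself varied by 0.68 about its mean. For Isl1 1450723_at they were Slc7a11 and Kbtbd8, each at 0.29, against a variation of 1.08. All 8 arrays enter, so this likeness reflects mainly the step from E14.5.

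**Figure D5:**
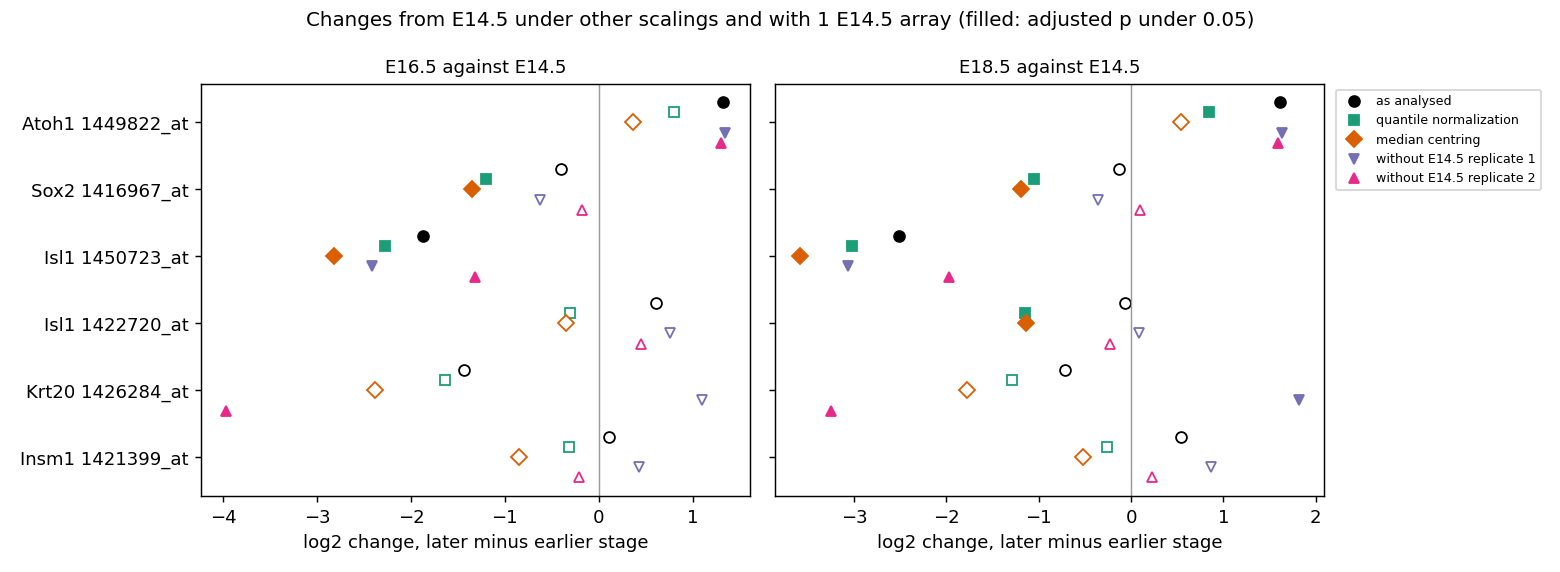
Log2 change at E16.5 (left) and E18.5 (right) against E14.5 for the 6 member probesets above background on at least 1 array, as analysed, with 2 other scalings and with each E14.5 array left out; filled symbols have an adjusted p under 0.05. The Isl1 1450723_at points stay below 0, the Krt20 points lie on both sides of 0 according to the E14.5 array used, and the Atoh1 points are above 0 but not called with median centring.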

How the data were processed

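Total RNA of dorsal skin was hybridised to 8 arrays. The deposited values are linear probeset signal intensities. Affymetrix Expression Console 1.1 and PLIER 2.0 are named, per the submitters' processing notes, without their settings. Per the labels' protocols the target was random-primed sense DNA on all arrays, which is uncertain for E14.5 given its 3′ to 5′ ratios.

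Stages came from the age labels, and replicate numbers from accession order. Control probesets (64) and probesets with several gene symbols (932) or none were left out, which left 34945. Signals were analysed as log2(signal + 16). One mean per stage was fitted to all 8 arrays with limma 3.58.1 in R 4.3.3 (lmFit, eBayes with a variance trend), and calls were made at p under 0.05 after Benjamini-Hochberg adjustment over all 34945 probesets. Differences are later minus earlier stage. Folds given as "at least" take each array of the lower stage at the higher of its signal and its background, and hold for the signals as deposited only. The number of arrays limits the precision.

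The members and lists were chosen with earlier results of these data known. All member probesets were named, with each list's called genes at E18.5 against E16.5 (up to the 4 largest changes, by the probeset of highest mean) and the 2 closest profiles per called member among genes above background on at least 1 array. Other genes were chosen after their values were seen. The test was checked on simulated data for E18.5 against E16.5 in 34945 probesets, where it recovered 24 of 100 changes of 1 log2 unit and 64 of 100 of 2 units. All other probesets were left unchanged there, whereas 3742 were called in the data. The adjustment depends on how many probesets change, so these shares do not give the recovery in the data. Alternatives were other pseudocounts, scalings, variance settings, filters, probeset summaries and each array left out.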

Additional observations from a re-analysis of the deposited data

How the results depend on the processing

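The calls at E18.5 against E16.5 stayed at 0 member probesets in all 18 alternatives. At E16.5 against E14.5 the 2 calls became 5 with median centring and 1 with each gene's probesets averaged, and at E18.5 against E14.5 they became 5 with median centring and 4 with quantile normalization. Leaving out 1 array gave 2 to 3 calls in both comparisons with E14.5. Over all probesets 3742 were called at E18.5 against E16.5, against 2435 without a variance trend and 1208 to 4120 with 1 array left out, lowest without E16.5 replicate 3 (1662 without E16.5 replicate 1 and 1563 without replicate 2). With 1 probeset per gene the counts were 2340 for that comparison, 10526 for E16.5 and 11129 for E18.5 against E14.5, and with the mean of probesets 1751, 9599 and 10330, from 18193 genes instead of 34945 probesets. The fall of Isl1 1450723_at at E18.5 against E14.5 was called in all alternatives that use this probeset alone (-3.58 to -1.97). It was also called with both Isl1 probesets averaged (-1.29). The rise of Atoh1 in that comparison was called in all alternatives but median centring, where the change was smallest at 0.55. Its largest change was 2.12. Values that were not called changed sign. These were Insm1 at E16.5 against E14.5 with median centring (-0.85), quantile normalization (-0.31), and with 1 array left out (-0.21 to 0.42, below 0 without E14.5 replicate 2, and without E16.5 replicate 3 at -0.02), and at E18.5 against E14.5 with the same 2 scalings (-0.52 and -0.26). Isl1 1422720_at turned to -0.35 and -0.31 with these scalings at E16.5 against E14.5, and at E18.5 it ran from -0.23 to 0.20 with 1 array left out, above 0 without E14.5 replicate 1 (0.09) or E18.5 replicate 2. Krt20 ran from -3.97 to 1.1 at E16.5 and from -3.25 to 1.82 at E18.5 with 1 array left out, above 0 without E14.5 replicate 1, and turned to 0.046 with a pseudocount of 1 at E18.5, and Sox2 to 0.10 without E14.5 replicate 2. The cause was not tested beyond what each alternative changes. Of the 23 list genes called at E18.5 against E16.5, 16 lost the call without at least 1 array, among them Ntrk2, Th, Ret, Corin, Krt6a, Krt13, Sfn, Trp63 and Cdh1, and 6 kept it in every alternative: Chga, Cpe, Shh, Bmp4, Krt17 and Grhl3. No paired analysis was possible because no sample code in the titles recurs whole in another stage, and although parts of some codes recur, the labels do not say what they mark. Signals near background limit Krt20, Insm1 and Rab3c.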

Other observations

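Of 8 genes with several probesets in the transcription factor, simple keratin, channel and granule lists, 3 had probesets called in both directions at E16.5 against E14.5 (Hes6, Cacna1a and Cacna1d), a pattern noticed after the values were seen. All 3 Krt8 probesets were called lower (-4.60 to -2.79), and of the 3 Ebf2 probesets 2 were called higher (2.23 and 2.61) and 1 was not called (0.25). Hes6, a helix-loop-helix gene of neural progenitors, gave 364 to 432 at E16.5, against 905 and 762 at E14.5, by probeset 1436050_x_at. By 1452021_a_at it gave 192 to 212 at E16.5, against 13.8 and 46.1 at E14.5. Both changes were called, at -1.02 and 2.34 on the log2 scale (adjusted p = 0.000385 and 8.95e-05). The calcium channel gene Cacna1d did the same, with changes of -2.21 and 1.57 (adjusted p = 0.000129 and 0.00463). Between E16.5 and E18.5 the probesets of Hes6 changed by -0.04 and 0.05, and those of Cacna1d by 0.51 and 0.96, none of them called.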
